A study of Homo sapiens and Mus musculus with 29 samples.

Results

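Epithelial-mesenchymal transition (EMT) is the program by which epithelial cells loosen their junctions and take on features of migrating mesenchymal cells. The genes described here are 10 of its regulators and markers, chosen by gene symbol out of 58719 genes in a table of HPAF-II tumors and metastases, together with the 10 mouse orthologs out of 54446 genes in a table of KPC cell lines. HPAF-II is a human pancreatic ductal adenocarcinoma line of the classical, epithelial subtype, grown here as orthotopic xenografts in the pancreas of NSG mice, which lack T, B and natural killer cells. KPC lines come from a genetically engineered mouse model of pancreatic cancer, and here from a matched primary tumor and liver metastasis. RNA sequencing covered 29 samples, of which 21 were HPAF-II samples from 15 mice and 8 were KPC libraries.

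The HPAF-II groups were control tumors (Cas-9 with an empty vector, EV; 3 tumors from 3 mice), HNF4G-KO tumors with the empty vector (4 tumors from 4 mice), FOXA1-OE tumors (Cas-9 with a lentiviral FOXA1 construct; 3 tumors from 3 mice), and HNF4G-KO + FOXA1-OE tumors (5 tumors from 4 mice). Tumors 2 and 3 of the last group came from the same mouse and were averaged. There were also 2 HNF4G-KO metastases, both from the peritoneum, and 4 HNF4G-KO + FOXA1-OE metastases, from the spleen, the peritoneum and fat, and tissue was taken at the humane endpoint. All of these groups are labelled CRISPR, with Cas-9 given as protein per the study's methods, and the knockout was a pool of 3 clones with heterozygotic frameshift mutations. The KPC libraries (4 for each line) are labelled WT for genotype and treatment, which here means no further manipulation of the KPC cells, and the labels do not say whether replicates were separate cultures, while the study's methods state biological replicates for RNA sequencing.

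The core of the EMT program is a small set of transcription factors. SNAI1 and SNAI2 are zinc-finger repressors, ZEB1 and ZEB2 are zinc-finger and homeodomain repressors, and TWIST1 is a basic helix-loop-helix factor. Together they silence E-cadherin and other junction genes and favor mesenchymal genes such as VIM, which encodes the intermediate filament vimentin. Epithelial factors oppose them. GRHL2 and OVOL1 are transcription factors that repress ZEB1 and maintain junction genes, and ESRP1 and ESRP2 are splicing regulators that keep transcripts such as those of CD44 and FGFR2 in their epithelial isoforms. In pancreatic cancer, partial forms of this program accompany the shift from the classical to the basal-like state.

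Some facts of the libraries bear on the members. The HPAF-II libraries held 33.1 to 69.6 M reads (M for mega, median 54.5 M) and the KPC libraries 30.1 to 44.4 M (median 36.2 M), worked out from the smallest steps between values. The most common low count was 2, and if each fragment was counted as 2 reads the libraries held medians of 27.3 M (HPAF-II) and 18.1 M (KPC) fragments, and the reads given below would be 2 times the fragments. HNF4G RNA was higher in the tumors labelled HNF4G-KO (5.72 to 8.42 RPKM, reads scaled by gene length and by the reads of the library) than in controls (2.48 to 3.47 RPKM). A frameshift need not lower the RNA, so this level does not test the label. FOXA1 measured 6.32 and 8.18 RPKM in FOXA1-OE tumors 1 and 2 but 0.763 RPKM in the library labelled FOXA1-OE tumor 3, inside the control range of 0.519 to 0.932 RPKM. It measured 4.65 to 23.1 RPKM in the HNF4G-KO + FOXA1-OE tumors, while 3 of the 4 metastases of that label held 0.535, 1.30 and 1.55 RPKM, none above the range of the HNF4G-KO tumors (1.26 to 1.87 RPKM). All 13 markers of pancreatic carcinoma epithelium were at or above 1 RPKM in every HPAF-II sample, and 10 of 12 in every KPC library. In the KPC table the liver metastasis libraries differed from the tumor libraries for several members in opposite directions in replicates 1-2 and 3-4, so each result on those lines is given over all libraries and within each pair of replicates.

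Stroma markers matter most for EMT genes, because fibroblasts and vessels express the same mesenchymal transcripts. The 18 markers of fibroblasts, mural cells and endothelium summed to 212, 203 and 67.6 RPKM in control tumors 1 to 3, to 60.3 to 79.8 RPKM in the 4 HNF4G-KO tumors, to 96.2, 169 and 38.4 RPKM in FOXA1-OE tumors 1 to 3, and to 57.9 to 128 RPKM in the 5 HNF4G-KO + FOXA1-OE tumors. Between 6 and 9 of the 18 reached 1 RPKM in any one HPAF-II sample, and PECAM1, the defining endothelial marker, stayed under 0.1 RPKM in every HPAF-II sample. The host is a mouse and the reads were aligned to the human genome, so how much host RNA each human gene collects depends on how alike the species are. Of all 50-base windows of the mouse transcript, 54.9% matched the human VIM transcript with at most 5 mismatches, as did 57.3% for ZEB2 and 51.7% for TWIST1, against 9.22% for SNAI1, 16.3% for OVOL1, 23.5% for GRHL2 and a median of 22.8% over the 18 stroma markers. The share for PECAM1 was 0.354%, the lowest of these markers, so its low level cannot show whether host endothelium was present. In these bulk samples fewer cells of a type and less RNA per cell cannot be told apart.

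In each control tumor all 4 epithelial factors were more abundant than SNAI1, ZEB1, ZEB2 and TWIST1. By RPKM, a scale that allows comparison between genes, VIM and ESRP1 were the highest members, with means of 32.1 ± 5.23 RPKM (SD, n = 3) and 28.5 ± 1.09 RPKM. ESRP2 followed at 14.3 ± 1.91 RPKM, and the spreads of VIM and ESRP1 overlapped while ESRP2 lay below both in all 3 tumors. GRHL2 at 6.09 ± 0.686 RPKM and SNAI2 at 5.63 ± 0.419 RPKM did not differ beyond their spread, and OVOL1 stood at 3.15 ± 0.377 RPKM. The remaining EMT factors were scarce: SNAI1 held 1.45 ± 0.507 RPKM, ZEB2 0.922 ± 0.291, TWIST1 0.857 ± 0.322 and ZEB1 0.464 ± 0.0764 RPKM. SNAI1, ZEB2 and TWIST1 overlapped one another in these tumors. ZEB1, ZEB2 and TWIST1 averaged under 1 RPKM over the primary tumors and did not pass the filter on low values, so 7 of the 10 members were tested in the primary tumors.

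**Figure D1:**
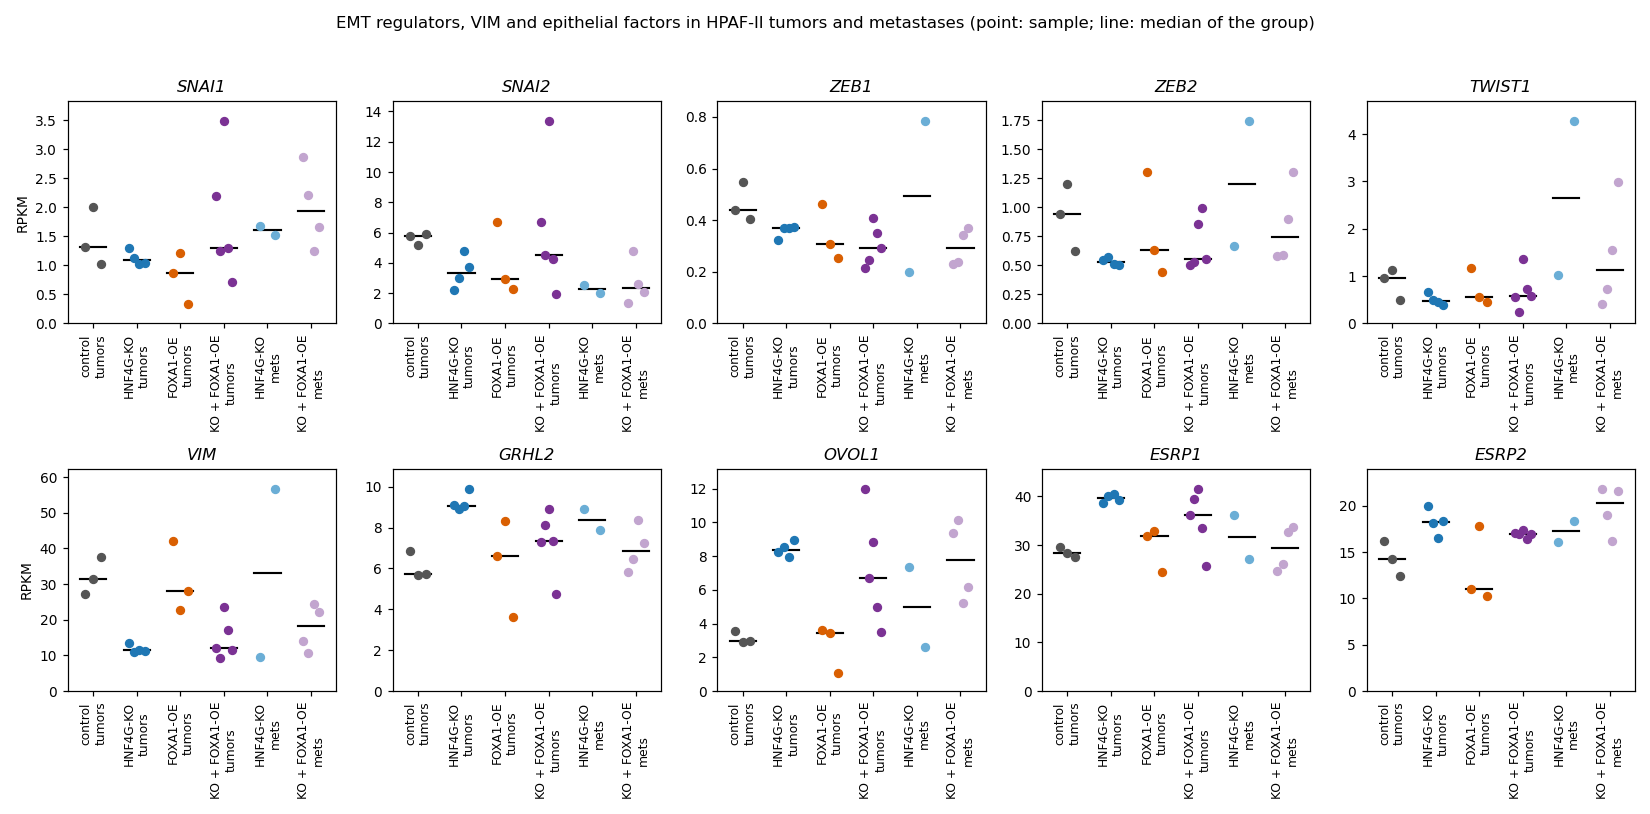
RPKM of the 10 members in each HPAF-II sample, one panel per gene; points are samples, lines are group medians, "KO + FOXA1-OE" stands for HNF4G-KO + FOXA1-OE and "mets" for metastases. In the HNF4G-KO tumors VIM lay at 11 to 13.6 RPKM and OVOL1 at 7.94 to 8.94 RPKM, apart from the controls at 27.3 to 37.7 and 2.90 to 3.59 RPKM.

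The comparison of HNF4G-KO with control tumors asks what the loss of HNF4G does to the balance between these genes in the primary site. VIM fell and OVOL1 rose. VIM (ENSG00000026025.15, chromosome 10, 17228241 to 17237593 on GRCh38, plus strand) measured 27.3, 31.4 and 37.7 RPKM in control tumors 1 to 3. It measured 13.6, 11, 11.6 and 11.2 RPKM in HNF4G-KO tumors 1 to 4. Every knockout tumor was below every control tumor, and the mean of 11.8 ± 1.18 RPKM was 2.72-fold below that of the controls. The log2 change of (RPKM + 1) was -1.36 ± 0.21 (SE), with an adjusted p = 0.00255 by limma over the 14269 genes tested.

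OVOL1 (ENSG00000172818.9, chromosome 11, 65787063 to 65797214, plus strand) moved the other way. It measured 3.59, 2.90 and 2.97 RPKM in the controls. In the HNF4G-KO tumors it measured 8.22, 8.51, 7.94 and 8.94 RPKM, so that the groups did not overlap. Its mean was 2.67-fold higher, with a log2 change of 1.18 ± 0.32 and an adjusted p = 0.0326 by limma. The call on OVOL1 was fragile: it was lost when any one of the 7 tumors was left out (log2 change 1.14 to 1.26, adjusted p = 0.0590 to 0.122), while that on VIM was kept in all 7.

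The other epithelial factors leaned upward without passing the test. GRHL2 (ENSG00000083307.11, chromosome 8, 101492439 to 101669726, plus strand) held 6.88, 5.67 and 5.71 RPKM in controls and 9.08, 8.89, 9.03 and 9.89 RPKM in HNF4G-KO tumors. The groups were apart, but the log2 change of 0.53 ± 0.22 had an adjusted p = 0.122. ESRP1 (ENSG00000104413.16, chromosome 8, 94641074 to 94707466, plus strand) held 29.6, 28.4 and 27.5 RPKM against 38.6, 40.0, 40.6 and 39.3 RPKM. Its tight groups gave a log2 change of 0.46 ± 0.16 and an adjusted p = 0.0791. ESRP2 (ENSG00000103067.13, chromosome 16, 68229033 to 68238102, minus strand) held 16.2, 14.3 and 12.4 RPKM against 20.0, 18.1, 16.5 and 18.4 RPKM. The margin between its groups was small, 16.5 against 16.2 RPKM, and its log2 change of 0.34 ± 0.17 had an adjusted p = 0.203. A further limma fit held only the control and HNF4G-KO tumors, so that the wider spread of the FOXA1-OE groups was not used. In it GRHL2 (adjusted p = 0.00515), ESRP1 (0.00657), ESRP2 (0.0499) and SNAI2 (0.0271) passed too. That fit called 6 of the 7 members, beside 5595 of all 14088 genes tested, so passing it was common among genes.

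Among the EMT factors, SNAI2 (ENSG00000019549.11, chromosome 8, 48917598 to 48921740, minus strand) was the most abundant. It held 5.81, 5.15 and 5.94 RPKM in the controls and 2.22, 2.98, 4.80 and 3.73 RPKM in HNF4G-KO tumors. All 4 knockout tumors were lower, but they varied among themselves, and the log2 change of -0.61 ± 0.36 had an adjusted p = 0.264. SNAI1 (ENSG00000124216.3, chromosome 20, 49982980 to 49988886, plus strand) held 1.31, 2.01 and 1.02 RPKM against 1.30, 1.13, 1.03 and 1.04 RPKM, which overlapped (log2 change -0.19 ± 0.23, adjusted p = 0.621). ZEB1 (ENSG00000148516.21, chromosome 10, 31318495 to 31529814, plus strand) held 0.403 to 0.550 RPKM in controls and 0.324 to 0.373 RPKM in HNF4G-KO tumors. ZEB2 (ENSG00000169554.19, chromosome 2, 144364364 to 144521057, minus strand) held 0.620 to 1.20 RPKM against 0.505 to 0.570 RPKM. Both were lower in every knockout tumor, with two-sided exact permutation p = 0.0571 for each, the smallest that 4 against 3 allows. TWIST1 (ENSG00000122691.12, chromosome 7, 19020991 to 19117636, minus strand) held 0.499 to 1.12 RPKM against 0.399 to 0.670 RPKM, and its groups overlapped (exact permutation p = 0.171).

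Of the 7 members tested, 2 were called, against 12.2% of all genes tested, and 6 did not overlap between the groups, against 46.4% of all genes tested. A great many genes therefore separated these tumors, and the members' share has to be read against that. The stroma markers moved in the same direction as VIM: their median log2 change was -0.97 over the 7 that were tested, none of them called and 3 at an unadjusted p below 0.05 by limma, beside 0.01 over all genes. Of the 3 macrophage and leukocyte genes tested (median -0.69), CD14 was called lower, at 4.15 to 5.21 RPKM against 11.2 to 17.3 RPKM in controls (-1.41, adjusted p = 0.00470). The acinar genes summed to 355 RPKM in 1 control tumor and to 0.0885 to 18.4 RPKM in every other primary tumor, and the part of these cells in the members' values was not tested. Control tumor 3, whose stroma sum of 67.6 RPKM lay within the HNF4G-KO range, had the highest VIM of the controls, 37.7 RPKM. With the mean level of the 7 tested stroma markers as a covariate, the log2 change of VIM was -1.35 (adjusted p = 0.00364 by limma). In that fit GRHL2 (0.85), OVOL1 (1.46), ESRP1 (0.61) and ESRP2 (0.54) were all called higher. It called 5 of the 7 members, beside 4248 of all 14269 genes tested, 2658 of them higher. The median log2 change over all genes was 0.097 in it.

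**Figure D2:**
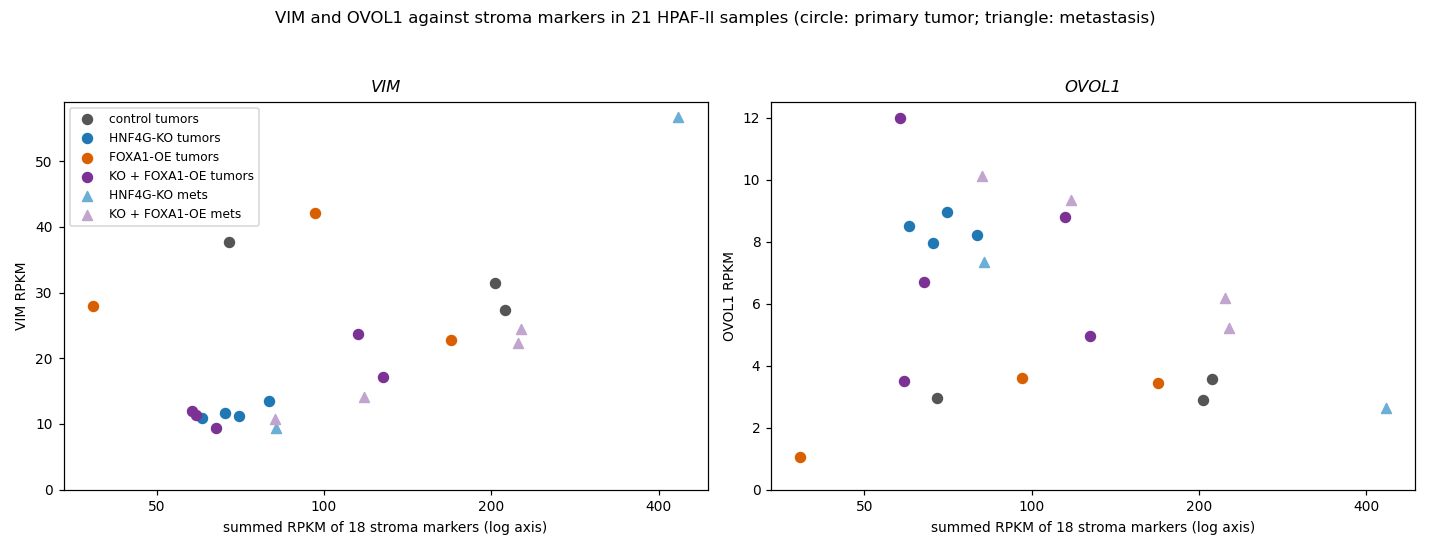
VIM (left) and OVOL1 (right) RPKM against the summed RPKM of 18 stroma markers on a log axis, for the 21 HPAF-II samples; circles are primary tumors, triangles metastases ("mets"), and "KO" stands for HNF4G-KO. The control and FOXA1-OE tumors held 22.7 to 42.1 RPKM of VIM over stroma sums of 38.4 to 212 RPKM, and HNF4G-KO metastasis 2 was highest on both VIM and stroma.

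The promoter of VIM is shown because VIM carried the largest change, and those of ZEB1 and ZEB2 because they are the other members in the table. They were searched for E-boxes, the sites that the SNAI, ZEB and TWIST factors bind. The table of RefSeq promoters used here held 3 of the 10 members. Each run below holds the 250 bases before a RefSeq start on GRCh38.p14, in the direction of the gene: chr10:17227991-17228240 (plus strand) for VIM, chr2:144520120-144520369 (minus strand) for ZEB2 and chr10:31318966-31319215 (plus strand) for ZEB1. This is 1 of 7 ZEB1 windows and the one with the most CAGGTG matches, chosen after the search. Of the 7, 2 held CAGGTG, 2 held CAGGTA and 3 held neither. Capitals mark CAGGTG or CAGGTA on either strand.
VIM: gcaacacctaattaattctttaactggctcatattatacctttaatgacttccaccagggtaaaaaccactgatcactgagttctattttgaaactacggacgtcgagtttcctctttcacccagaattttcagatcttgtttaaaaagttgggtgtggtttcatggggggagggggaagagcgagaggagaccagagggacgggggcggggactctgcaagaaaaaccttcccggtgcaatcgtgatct
ZEB2: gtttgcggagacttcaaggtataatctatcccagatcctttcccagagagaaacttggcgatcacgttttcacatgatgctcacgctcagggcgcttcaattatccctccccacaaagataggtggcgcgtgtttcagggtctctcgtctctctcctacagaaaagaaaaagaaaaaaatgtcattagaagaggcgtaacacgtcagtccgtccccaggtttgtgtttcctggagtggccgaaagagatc
ZEB1: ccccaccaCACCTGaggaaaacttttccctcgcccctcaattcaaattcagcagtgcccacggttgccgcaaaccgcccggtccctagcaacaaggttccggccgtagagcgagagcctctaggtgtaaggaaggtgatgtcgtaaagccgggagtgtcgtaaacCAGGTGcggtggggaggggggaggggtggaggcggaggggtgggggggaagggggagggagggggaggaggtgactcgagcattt

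Over the 34943 promoters of the same length, CAGGTG occurred in 17.5%, CAGGTA in 8.01% and the general E-box CANNTG, which includes CAGGTG, in 61.8%. The VIM window held none of these letters. The ZEB2 window held 1 general E-box, CACATG, 180 bases before the start. The ZEB1 window shown held CACCTG, the reverse complement of CAGGTG, 242 bases before its start and CAGGTG 85 bases before it. None of the windows of these members held the searched letters for FOXA (TGTTTAC, in 2.98% of promoters), GRHL (AACNGGTT, in 1.49%) or HNF4 (CAAAGTCC, in 1.02%). The absence of a match says only that these letters were not in this window.

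The wider programs around the members did not move as one block. Of the 25 epithelial junction and keratin genes tested in HNF4G-KO against control tumors, which include E-cadherin and the claudins, limma called 0, with 6 at an unadjusted p below 0.05 and a median log2 change of 0.05 beside 0.01 over all genes. Of the 15 tested mesenchymal genes 5 were called, all lower, with a median of -0.45. TGFBI, a secreted matrix protein induced by TGF-beta, held 291 to 332 RPKM in controls and 66.1 to 99.8 RPKM in HNF4G-KO tumors (log2 change -1.85, adjusted p = 0.00616). AXL, a receptor tyrosine kinase of mesenchymal cells, held 10.1 to 13.7 against 2.86 to 3.56 RPKM (-1.60, adjusted p = 0.00175). The matrix protein TNC (-1.46, adjusted p = 0.0362) and the actin-binding TPM1 (-1.18, adjusted p = 0.0228) were also lower by limma.

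Among 13 tested further EMT transcription and splicing factors, 2 were called higher, a share near the 12.2% of all genes. GRHL3, a relative of GRHL2 in barrier formation, held 0.798 to 1.62 RPKM in controls and 3.70 to 4.46 RPKM in HNF4G-KO tumors (log2 change 1.17, adjusted p = 0.0276 by limma). SNAI3, the least studied member of the SNAI family, held 2.02 to 3.28 against 6.62 to 8.55 RPKM (1.15, adjusted p = 0.0300). Of the 21 TGF-beta signaling genes tested, 3 were called, again near the share of all genes, all of them higher and with a median of 0.33: the inhibitory SMAD7 (0.99), ID3 (0.97) and the SMAD corepressor SKIL (0.82). Of the 13 carcinoma epithelium markers, 5 were called higher (median 0.45), among them TFF1, a secreted trefoil protein, at 336 to 663 RPKM against 51.2 to 88.9 RPKM, and CEACAM6, a cell-surface adhesion protein of carcinoma cells, at 823 to 992 against 174 to 318 RPKM. The lists of genes were chosen with earlier results of these data known.

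FOXA1-OE tumors against control tumors asks what added FOXA1 does where HNF4G is intact. No member was called, and the percentage called over all 14269 genes was 0, with 652 genes and 0 of the 7 members at an unadjusted p below 0.05 by limma. VIM held 42.1, 22.7 and 28.0 RPKM in FOXA1-OE tumors 1 to 3, which spanned the controls (log2 change -0.09 ± 0.22, adjusted p = 0.926). OVOL1 held 3.60, 3.46 and 1.07 RPKM (-0.25 ± 0.35, adjusted p = 0.861), with the lowest value in tumor 3, the library without raised FOXA1. That tumor was also lowest of the 3 in SNAI1 (0.330 RPKM), SNAI2 (2.30), ZEB1 (0.255), ZEB2 (0.446), TWIST1 (0.448), GRHL2 (3.61), ESRP1 (24.5) and ESRP2 (10.3 RPKM). In its library the 10 highest genes held 32.7% of the summed RPKM, against 14.4% and 20.5% in tumors 1 and 2. The part of this in the members' low values was not tested. Over the group, the log2 changes were -0.45 ± 0.25 for SNAI1, -0.51 ± 0.38 for SNAI2, 0.05 ± 0.18 for ESRP1 and -0.15 ± 0.18 for ESRP2. Tumor 1 held the highest SNAI2 (6.72 RPKM), ZEB2 (1.31) and TWIST1 (1.17 RPKM) of the 3. Each of the 10 members overlapped between the groups, and 3 against 3 tumors cannot give an exact permutation p below 0.1. Without tumor 3, the log2 change of GRHL2 turned from -0.04 to 0.25 and that of OVOL1 from -0.25 to 0.13, and again no member was called.

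The comparison of HNF4G-KO + FOXA1-OE with HNF4G-KO tumors asks what added FOXA1 does where HNF4G is lost. None of the 7 tested members was called, against 0.0561% of all genes, and none had an unadjusted p below 0.05 by limma. The nearest was GRHL2, at 7.30, 8.13, 8.93, 7.35 and 4.77 RPKM in HNF4G-KO + FOXA1-OE tumors 1 to 5. As means per mouse these lay below all 4 HNF4G-KO tumors (log2 change -0.38 ± 0.20, adjusted p = 0.287; unadjusted exact permutation p = 0.0286, the smallest that 4 against 4 allows), although tumor 3 at 8.93 RPKM exceeded the lowest HNF4G-KO tumor at 8.89. It was the 1 of 7 tested members that did not overlap as means per mouse, against 15.2% of all genes. OVOL1 held 12.0, 6.70, 8.80, 4.96 and 3.50 RPKM, a wider range than the 7.94 to 8.94 RPKM of HNF4G-KO tumors (-0.34 ± 0.30, adjusted p = 0.479). The log2 changes of SNAI1 (0.24 ± 0.22), SNAI2 (0.40 ± 0.33), ESRP1 (-0.24 ± 0.15) and ESRP2 (-0.10 ± 0.16) were not called. VIM held 12.0, 9.40, 23.6, 17.1 and 11.4 RPKM (log2 change 0.20 ± 0.19, adjusted p = 0.518). Its highest values were in tumors 3 and 4, which also had the highest stroma sums of the group, 115 and 128 RPKM against 57.9 to 64.0 RPKM in the other 3, and the part of stroma in this spread was not tested.

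Tumor 3 of this group stood apart for several EMT factors. It held 13.3 RPKM of SNAI2 against 1.96 to 6.70 RPKM in the other 4, and 3.48 RPKM of SNAI1 against 0.707 to 2.20 RPKM. TWIST1 was 1.36 RPKM in it and 0.232 to 0.724 RPKM in the others. Tumor 2, from the same mouse, held 4.54, 1.24 and 0.232 RPKM of these genes. For each of these 3 genes the gap between the 2 tumors of this mouse was wider than the range over tumors 1, 2, 4 and 5. Tumor 3 also had the highest FOXA1 of all samples, 23.1 RPKM, while its ESRP1 (41.5 RPKM) and GRHL2 (8.93 RPKM) were the highest of the group. High SNAI2 was thus found with high ESRP1 and GRHL2 in the same tumor. Its carcinoma epithelium markers were lower on average. Their mean log2(RPKM + 1) was 6.91 in tumor 3 and 7.77 to 8.18 in the other 4. A single gene can move such a mean, and TFF1 of this list spanned 6.01 to 798 RPKM over the group. By summed RPKM the markers held 5246 in tumor 3, nearer to the 5796 and 5718 of tumors 2 and 4. ZEB1 held 0.215 to 0.409 RPKM and ZEB2 0.499 to 0.994 RPKM over the 5 tumors.

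Against control tumors, the HNF4G-KO + FOXA1-OE tumors again had lower VIM. The mean was 13.9 ± 2.67 RPKM (SD over 4 mice), 2.32-fold below the controls, with a log2 change of -1.16 ± 0.21 and an adjusted p = 0.00815 by limma. VIM was the 1 member called of 7, against 4.7% of all genes, and 2 of the 7, VIM and ESRP2, did not overlap, against 18.9%. The call on VIM was lost without control tumor 3 (log2 change -1.04, adjusted p = 0.0584) and with only the groups compared in the fit (adjusted p = 0.0528). In the same comparison the 7 stroma markers tested had a median of -0.71, none of them called and 1 at an unadjusted p below 0.05 by limma, and CD14 was lower (-1.30, adjusted p = 0.00937). With the stroma covariate VIM was called (-1.15, adjusted p = 0.0186). OVOL1 averaged 7.03 ± 3.72 RPKM (log2 change 0.84 ± 0.32, adjusted p = 0.170), and tumor 5 at 3.50 RPKM lay within the controls. ESRP2 was even across the group at 16.4 to 17.4 RPKM (0.24 ± 0.17, adjusted p = 0.50). SNAI1 (0.06 ± 0.23), SNAI2 (-0.21 ± 0.36), GRHL2 (0.15 ± 0.22) and ESRP1 (0.23 ± 0.16) had log2 changes no larger than 1.4 times their SE. ZEB1 lay below the controls in every mouse (exact permutation p = 0.0571), and ZEB2 and TWIST1 overlapped. This comparison shares its control tumors with that of the HNF4G-KO tumors.

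Against FOXA1-OE tumors, the HNF4G-KO + FOXA1-OE tumors also had lower VIM, at a log2 change of -1.08 ± 0.21 and an adjusted p = 0.00735. These groups differ by label in the knockout, but FOXA1 itself averaged 5.09 RPKM in the FOXA1-OE tumors and 8.73 RPKM in the HNF4G-KO + FOXA1-OE tumors. With only the groups compared in the fit the call on VIM was lost (adjusted p = 0.118). It was the 1 member called of 7, against 7.86% of all genes, and the 1 of 7 that did not overlap as means per mouse, against 14.6%. As single tumors, tumor 3 at 23.6 RPKM exceeded FOXA1-OE tumor 2 at 22.7 RPKM. OVOL1 was 2.6-fold higher on average and missed the threshold narrowly (1.09 ± 0.32, adjusted p = 0.0555). Without the library labelled FOXA1-OE tumor 3 its log2 change was 0.71 (adjusted p = 0.174), and without tumor 2 of that group it was called (1.26, adjusted p = 0.0485), as was ESRP2 (0.62, adjusted p = 0.0244). TGFBI (-2.50), AXL (-1.35) and FSTL1 (-0.83) were the mesenchymal genes called, all lower, of 15 tested, and GRHL3 (1.30) was called higher. Of the epithelial junction and keratin genes, SPINT2 was called lower (-0.82, adjusted p = 0.0422 by limma). The carcinoma epithelium markers CEACAM6 (1.93) and HNF4A (0.87) were called higher. SNAI1 (0.51 ± 0.23, adjusted p = 0.205), SNAI2 (0.29 ± 0.36), GRHL2 (0.19 ± 0.22) and ESRP1 (0.18 ± 0.16) were not called, and ZEB1, ZEB2 and TWIST1, below the filter, overlapped between the groups (exact permutation p = 0.571, 0.743 and 0.8). A difference in the effect of FOXA1-OE between tumors with and without HNF4G-KO was called for 0 of 7 members by limma, with 0 at an unadjusted p below 0.05, against 0.035% of all genes. The largest estimates were 0.91 ± 0.51 for SNAI2 (adjusted p = 0.667) and 0.70 ± 0.33 for SNAI1 (adjusted p = 0.593), with -0.34 ± 0.31 for GRHL2, 0.29 ± 0.29 for VIM, -0.28 ± 0.23 for ESRP1, -0.09 ± 0.46 for OVOL1 and 0.05 ± 0.24 for ESRP2.

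**Figure D3:**
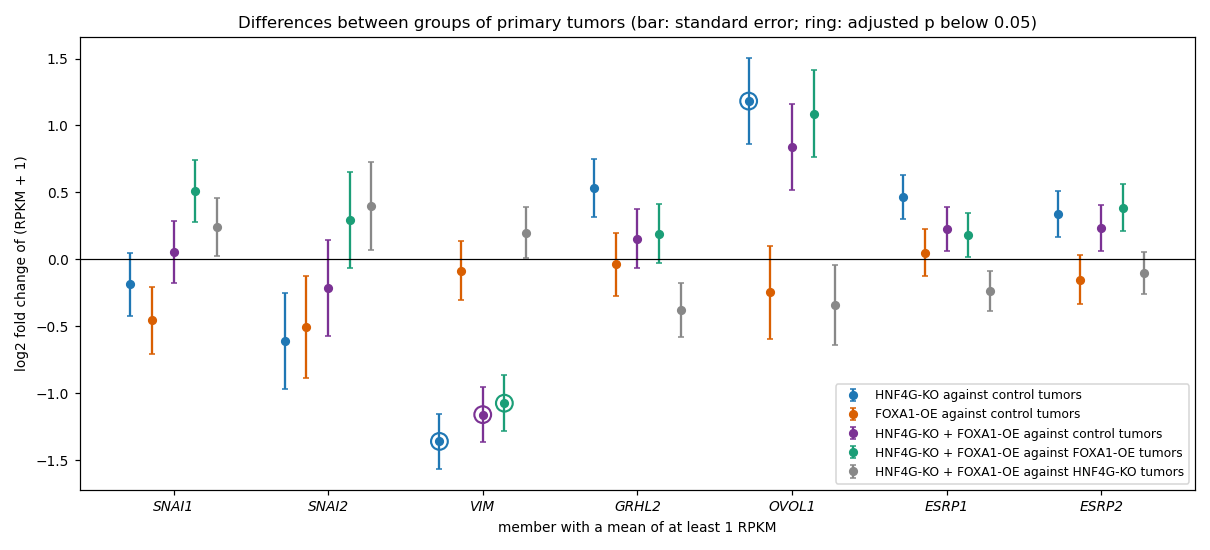
Log2 fold change of (RPKM + 1) with its standard error for the 7 members tested in the primary tumors, in 5 comparisons; a ring marks an adjusted p below 0.05. VIM is ringed in the 3 comparisons of HNF4G-KO tumors, with or without FOXA1-OE, against tumors without the knockout (-1.36, -1.16 and -1.08), and OVOL1 in HNF4G-KO against control tumors alone (1.18).

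The metastases bear on whether these genes shift between the primary and secondary sites of the same cells. In the HNF4G-KO group the 2 metastases disagreed. Metastasis 1 held 9.44 RPKM of VIM, 7.35 of OVOL1, 1.03 of TWIST1, 0.201 of ZEB1 and 0.666 RPKM of ZEB2. Metastasis 2 held 56.7 RPKM of VIM, the highest of all HPAF-II samples, with 2.63 of OVOL1, 4.27 of TWIST1, 0.783 of ZEB1 and 1.74 RPKM of ZEB2. For TWIST1, ZEB1 and ZEB2 these were again the highest HPAF-II values. The stroma sum was 82.1 RPKM in metastasis 1 and 434 RPKM in metastasis 2, also the highest of all. The primary tumor of the same mouse as metastasis 2, HNF4G-KO tumor 4, held 11.2 RPKM of VIM, 0.399 of TWIST1 and a stroma sum of 70.4 RPKM.

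None of the 8 members tested in this comparison was called (TWIST1 entered because its mean over these samples reached 1 RPKM), against 0.0426% of all genes, and 1, TWIST1, had an unadjusted p below 0.05 by limma. TWIST1 was above the 4 tumors in both metastases (log2 change 1.12 ± 0.36, adjusted p = 0.261), and so were SNAI1 (1.68 and 1.52 RPKM, 0.29 ± 0.25, adjusted p = 0.624) and ZEB2, where 2 against 4 cannot give an exact permutation p below 0.133. SNAI2 (2.52 and 1.98 RPKM, -0.42 ± 0.36, adjusted p = 0.621) and ZEB1 overlapped the tumors. VIM had a log2 change of 0.94 ± 0.48 (adjusted p = 0.410). Without metastasis 1 it was 2.17 and TWIST1 was 1.81, and without metastasis 2 VIM was -0.29. Each of these rests on 1 metastasis, whose own spread cannot be measured. With the stroma covariate the VIM change turned to -0.28 and that of TWIST1 became 0.35. Among the epithelial members, OVOL1 (-0.77 ± 0.39, adjusted p = 0.402) and ESRP1 (36.2 and 27.1 RPKM, -0.33 ± 0.21, adjusted p = 0.494) lay below all 4 tumors in both metastases without passing the test. GRHL2 at 8.92 and 7.86 RPKM and ESRP2 at 16.1 and 18.4 RPKM overlapped the tumors. Of the 8 members tested, 4 (SNAI1, TWIST1, OVOL1 and ESRP1) did not overlap between metastases and tumors, against 33% of all genes tested.

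In the HNF4G-KO + FOXA1-OE group no member of 8 was called, against 0.00709% of all genes, and 1, SNAI2, had an unadjusted p below 0.05 by limma. SNAI2 held 1.34, 4.75, 2.6 and 2.08 RPKM in metastases 1 to 4 (log2 change -0.73 ± 0.31, adjusted p = 0.493). Metastases 1 and 2 came from the mouse of tumor 1, which held 6.70 RPKM, and metastasis 4 from that of tumor 4, at 4.23 RPKM, so SNAI2 was lower in each of these 3 metastases than in the primary tumor of its mouse. Metastasis 3 came from a mouse with no primary tumor among the samples. TWIST1 held 0.403, 0.735, 1.54 and 2.98 RPKM (0.61 ± 0.32, adjusted p = 0.527). VIM held 14.2, 10.8, 24.5 and 22.3 RPKM (0.44 ± 0.43, adjusted p = 0.685). The higher values of both were in metastases 3 and 4, whose stroma sums were 226 and 223 RPKM against 118 and 81.5 RPKM in metastases 1 and 2. With the stroma covariate the change of VIM turned to -0.39 and that of TWIST1 became 0.09. OVOL1 (9.34, 10.1, 5.21 and 6.18 RPKM) and ESRP2 (21.8, 19.0, 16.2 and 21.6 RPKM) overlapped the tumors, with log2 changes of 0.08 ± 0.34 and 0.18 ± 0.14. SNAI1 (0.14 ± 0.22), GRHL2 (0.06 ± 0.17) and ESRP1 (-0.14 ± 0.18) were not called either, and ZEB1 at 0.231 to 0.369 RPKM and ZEB2 at 0.585 to 1.30 RPKM overlapped the tumors. With metastasis 2 alone, the 1 library with FOXA1 above every HNF4G-KO sample and a choice made after its values were seen, the log2 changes of SNAI2 and VIM were 0.01 and -0.32.

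Across the 14 mice with primary tumors, the genes whose levels ran most like a member's were found by Pearson's r on log2(RPKM + 1), as a description with no test. These mice share group differences and library composition, which correlations of this kind carry. VIM ran most like ISL1 (r = 0.97; 0.579 to 2.64 RPKM), a LIM-homeodomain factor, TMSB4X (0.96; 311 to 1305 RPKM), which encodes the actin-sequestering thymosin beta, and AXL (0.96). ZEB1 ran like MYADM (0.87), NT5DC3 (0.86) and the pseudogene RPSAP47 (0.84), with lower r than for the other 3 members. GRHL2 ran like ZC3H13 (0.98), HP1BP3 (0.98) and ZNF675 (0.97), and ESRP1 like GOLGA7 (0.97), NBN (0.97) and RNF6 (0.97). GOLGA7 and NBN lie on chromosome 8, as ESRP1 does.

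Reads behind these values differ widely between members. TWIST1 rested on 30 to 404 reads in a HPAF-II library and ZEB1 on 87 to 277, against 2937 to 11959 for VIM, so that a difference in TWIST1 or ZEB1 is less surely measured. VIM shares 656 exon bases with VIM-AS1 on the opposite strand, at 2.24 RPKM on average, and ZEB1 396 with ZEB1-AS1, ZEB2 1299 with ZEB2-AS1 and ESRP2 227 with NFATC3. The library kit marks strand, but the strand setting of the counting is not given in the sources used here, so reads of these pairs may not have been told apart.

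The KPC cells present another balance of the same genes. This table was normalized apart from that of HPAF-II, so levels are compared within it. Vim held 527 to 790 RPKM, by far the highest member, and Zeb1 (5.62 to 7.93 RPKM), Snai2 (3.78 to 12.5) and Twist1 (2.12 to 7.63) were all readily detected. Of the epithelial factors, Esrp2 alone was abundant (5.43 to 21.9 RPKM). Esrp1 held 0.112 to 0.371 RPKM, and Grhl2 (0.00772 to 0.0445) and Ovol1 (0.00886 to 0.149 RPKM) were near the limit of detection, with Ovol1 resting on 1 to 13 reads a library. Outside the members, Cdh1 (E-cadherin) held 163 to 277 RPKM in the tumor libraries and 148 to 332 RPKM in the liver metastasis libraries. Epcam was lower, at 2.44 to 7.05 and 1.30 to 4.92 RPKM. The stroma markers summed to 3.43 to 11.3 RPKM in these cultures, against at least 527 RPKM of Vim. Esrp2 shares 219 exon bases with Nfatc3 on the opposite strand (10.8 RPKM on average), and reads of the pair can be told apart only by strand.

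The liver metastasis line was compared with the tumor line over all 8 libraries. No gene passed (0% of 12585 genes called, 109 at an unadjusted p below 0.05 by limma), and neither did any of the 6 members tested, none of which had an unadjusted p below 0.05. Log2 changes lay between -0.14 (Zeb2, ± 0.30) and 0.12 (Esrp2, ± 0.45). Twist1 (-0.13 ± 0.43), Vim (-0.07 ± 0.16), Zeb1 (-0.04 ± 0.13) and Snai2 (0.01 ± 0.31) lay between them, and Snai1, Grhl2, Ovol1 and Esrp1 were below the filter and overlapped. For several members the replicates split. Twist1 (ENSMUSG00000035799.6, chromosome 12, 33957671 to 33959829 on GRCm38, plus strand) held 3.31, 2.51, 7.46 and 6.86 RPKM in libraries 1 to 4 labelled tumor and 7.63, 7.21, 2.12 and 2.16 RPKM in those labelled liver metastasis. Esrp2 (ENSMUSG00000084128.10, chromosome 8, 106130319 to 106136974, minus strand) held 17.4, 20.6, 5.43 and 7.98 RPKM against 7.76, 7.99, 16.8 and 21.9 RPKM. For these genes tumor libraries 1 and 2 were thus near liver metastasis libraries 3 and 4, and the reverse.

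**Figure D4:**
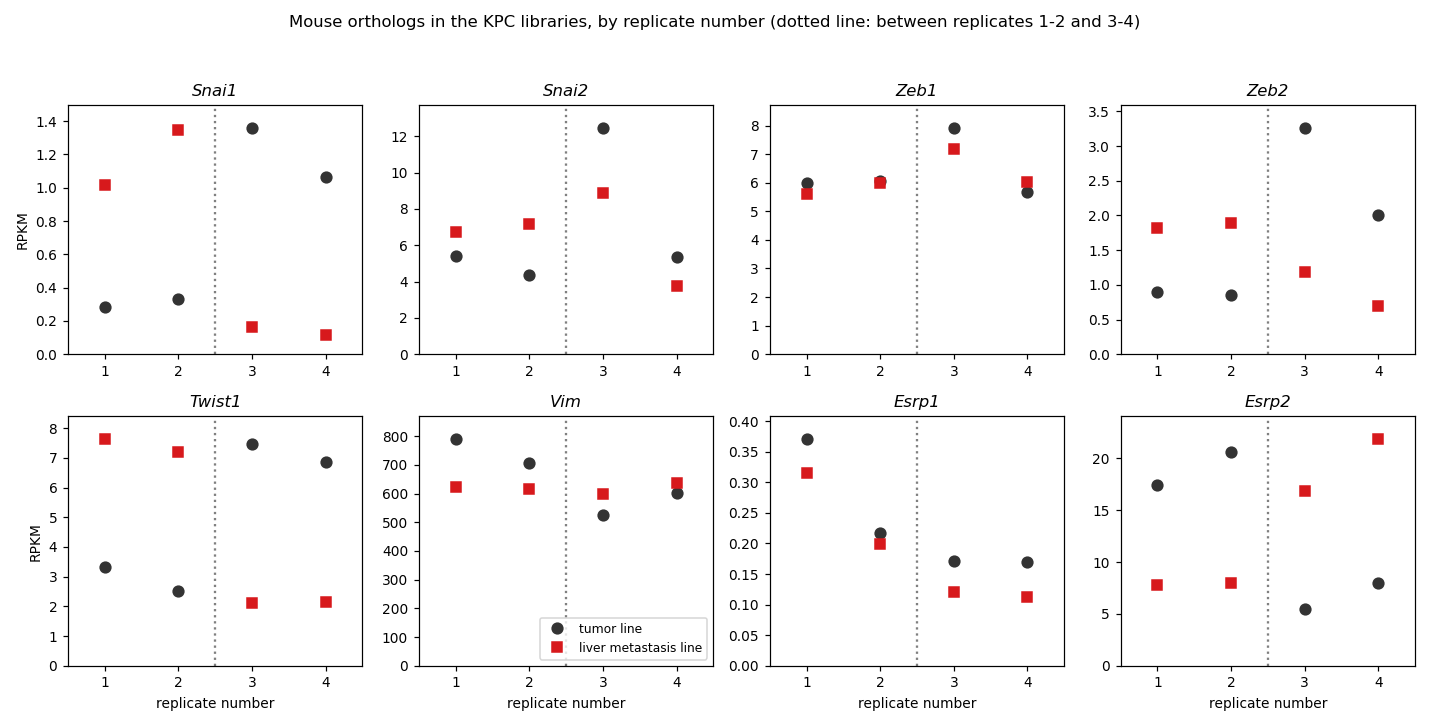
RPKM of 8 mouse orthologs in the KPC libraries against replicate number; circles are the tumor line, squares the liver metastasis line, and the dotted line separates replicates 1-2 from 3-4. For Snai1, Zeb2, Twist1 and Esrp2 the order of the lines is the opposite on the 2 sides of the dotted line, as with Twist1 at 3.31 and 2.51 against 7.63 and 7.21 RPKM on the left and 7.46 and 6.86 against 2.12 and 2.16 RPKM on the right.

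Within replicates 1 and 2, the liver metastasis libraries held more Twist1, Zeb2 and Snai2 and less Esrp2. Twist1 was 2.55-fold higher (log2 change 1.11 ± 0.12, adjusted p = 0.00624 by limma), Zeb2 2.13-fold (0.61 ± 0.12, adjusted p = 0.0265) and Snai2 1.42-fold (0.44 ± 0.11, adjusted p = 0.0437). Esrp2 was 2.42-fold lower (-1.17 ± 0.09, adjusted p = 0.00344). In all, 4 of the 6 tested members were called, against 25.5% of all genes, and 6 of 6 did not overlap between the lines, against 67.5%. Vim (707 and 790 against 614 and 623 RPKM; -0.27 ± 0.08, adjusted p = 0.0722) and Zeb1 (-0.05 ± 0.07, adjusted p = 0.649) were not called. The listed genes of the wider programs moved in both directions: of 19 epithelial junction genes tested 4 were higher and 10 lower, of 12 mesenchymal genes 6 higher and 2 lower, and of 11 carcinoma epithelium markers 1 higher and 10 lower. Cdh1 (E-cadherin, -0.82) and Cldn7 (-1.44) were lower, Ocln (1.08) and Cldn3 (2.16) were higher, and S100a4 (1.71) and Fn1 (1.24) were higher. In replicates 3 and 4 Cldn3 was called in the other direction (-2.53, adjusted p = 0.0245 by limma). The line effect also differed between the pairs of replicates for S100a4 (-3.40), Fn1 (-3.11), Ocln (-2.21) and Cldn7 (2.67).

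Within replicates 3 and 4, Twist1 moved the other way. It was 3.34-fold lower in the liver metastasis libraries (-1.38 ± 0.15, adjusted p = 0.0486), the 1 member of 6 called, against 0.635% of all genes, and 3 of 6 (Zeb2, Twist1 and Esrp2) did not overlap, against 46.5%. Zeb2 had a log2 change of -0.89 ± 0.26 (adjusted p = 0.219) and Esrp2 of 1.41 ± 0.24 (adjusted p = 0.107), neither of them a call. Snai2 (-0.43 ± 0.51) and Vim (0.13 ± 0.20) overlapped between the lines, and Zeb1 (-0.03 ± 0.21) was close to its value in replicates 1 and 2. Tested as a difference between the pairs of replicates, the line effect differed for Twist1 (-2.49 ± 0.18, adjusted p = 0.000422), Esrp2 (2.58 ± 0.28, adjusted p = 0.00184) and Zeb2 (-1.50 ± 0.30, adjusted p = 0.0156), 3 of 6 members, against 20.2% of all genes. Snai1, below the filter, followed Twist1 with 0.285, 0.331, 1.36 and 1.07 RPKM in the tumor libraries and 1.02, 1.35, 0.164 and 0.114 RPKM in those of the metastasis. The split was not particular to these genes: across genes, which are not independent replicates, the deviations from the gene means of libraries of the same line in different pairs of replicates correlated at -0.71 to -0.50. Those of libraries of different lines in different pairs correlated at -0.02 to 0.49, and those of different lines within a pair at -0.59 to 0.12. Whether each library is labelled as its own line was not tested.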

How the data were processed

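RNA was sequenced from HPAF-II xenografts and KPC cultures. Per the study's methods, stranded mRNA libraries were read in single-end mode. The submitters' processing notes name STAR 2.6.1a, featureCounts 2.0.4 and DESeq2, and both GRCh38 and GRCm38, while the methods give GRCh37 for human reads. The authors deposited RPKM values per gene, one table for each species, which were scaled to each library's own total. Among the KPC values 12 columns belong to none of the samples and were not used. Coordinates come from GENCODE (58205 of 58719 human and 54409 of 54446 mouse gene IDs matched) and promoters from RefSeq.

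From these values log2(RPKM + 1) was computed, and linear models were fitted by limma 3.58.1 (R 4.3.3), its variance prior following the mean level. Genes averaging 1 RPKM or more in a fit were tested, Benjamini-Hochberg adjustment ran over all of them, and an adjusted p below 0.05 was a call. This scale understates changes of low genes. The 4 groups of primary tumors shared 1 fit over 14 mice, in which tumors of the same mouse were averaged. Metastases had 1 value per mouse, and the 8 KPC libraries were fitted apart. For single members, exact permutation tests, two-sided, were run with scipy 1.17.1. The fit was tested on simulated data. A p-value by limma sets a difference against the spread within groups, estimated over all groups of the fit. In KPC that spread is between libraries of 1 line for each label, not between lines or animals. Depth was read from the RPKM steps, of which at least 99.7% lay within 0.01 of a whole read. The most common low count was 2.

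The genes named were all members and their orthologs in each comparison (those below the filter by level, without a fit), HNF4G and FOXA1 once, at most the 4 called genes of largest change of each list, and for VIM, ZEB1, GRHL2 and ESRP1 the 3 most alike genes. The members and lists were chosen with earlier results of these data known. Tumor numbers did not pair samples (correlations of deviations -0.27 to 0.63), whereas tumors and metastases from 1 mouse pair through the animal (0.25, 0.30, 0.27 and -0.03). KPC replicate numbers gave -0.08, -0.41, 0.21 and -0.25. Alternatives were a pseudocount of 0.1, no filter, samples shifted to the same median, only the groups compared, separate tumors of the same mouse, blocks, the stroma covariate and leaving out each sample. The stroma covariate was the mean of the stroma markers that passed the filter of the fit.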

Additional observations from a re-analysis of the deposited data

Results flagged for a closer look

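ZEB1 in HNF4G-KO tumor 1 stood apart from its group, at 0.324 RPKM against 0.368 to 0.373 RPKM in the other 3 tumors. The gap was 0.896 of the group's range, over the critical value of 0.829 for 4 samples. Of 40 groups examined in this way this was the 1 found, where chance gives about 1 in 20.

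In the KPC lines the difference between liver metastasis and tumor libraries was not the same in replicates 3-4 as in replicates 1-2. Tested by limma as a difference of the line effects on the log2 scale, it was -2.49 for Twist1, -1.50 for Zeb2 and 2.58 for Esrp2. For Snai1 (-1.69) and Grhl2 (-0.068), whose libraries moved in opposite directions in the pairs of replicates, the difference was not tested. Snai1 was 3.83-fold higher in the liver metastasis libraries in replicates 1-2 and 8.73-fold higher in the tumor libraries in replicates 3-4. Grhl2 rested on 2 to 17 reads per library.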

How the results depend on the processing

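Of the members called, VIM in HNF4G-KO against control tumors was kept in every alternative that was run. In that comparison the number of members called was 2, and it was 1 with no RPKM filter (VIM, with OVOL1 at an adjusted p = 0.0880 by limma), 5 with the stroma covariate, 6 with only the groups compared and 1 in each fit that left out a sample. In HNF4G-KO + FOXA1-OE against control tumors it was 1, and it was 0 with only the groups compared and with tumor number as replicate block (VIM -1.10, adjusted p = 0.0563), and 0 to 1 when a sample was left out (0 without control tumor 3). Against FOXA1-OE tumors it was 1, and it was 2 at the same median, with the stroma covariate, with separate tumors and with the replicate block (OVOL1 1.31, adjusted p = 0.0273), 0 with only the groups compared (VIM at an adjusted p = 0.118), and 1 to 3 when a sample was left out (3 without FOXA1-OE tumor 2, 2 without HNF4G-KO + FOXA1-OE tumor 5). For the HNF4G-KO metastases it was 0, and it stayed 0 when any 1 primary tumor was left out. Leaving out a metastasis left 1 in that group, and no number is given for it. In the KPC lines it was 0, and 4 in replicates 1 and 2, 1 in replicates 3 and 4, and 3 for their difference, while the replicate block gave 0. The mouse as a block, where a tumor and metastasis came from 1 animal, changed no call on a member (0 and 0). Numbers of all genes called moved too: 1736 became 4248 with the stroma covariate, 5595 with only the groups compared and 284 to 1165 when a sample was left out in HNF4G-KO against control tumors, 670 became 25 and 344 with only the groups compared and the block in HNF4G-KO + FOXA1-OE against control tumors, and 1122 became 1854 with the stroma covariate and 86 with only the groups compared against FOXA1-OE tumors. In HNF4G-KO + FOXA1-OE against HNF4G-KO tumors 8 became 616 with the stroma covariate, 16 with no filter and 0 with only the groups compared, at a pseudocount of 0.1 or at the same median, in the HNF4G-KO metastases 6 became 77 with the mouse as a block, and in KPC 0 became 3174 in replicates 1 and 2, 81 in replicates 3 and 4 and 2537 for their difference. Of the results on single members under all alternatives 816 kept direction and side of the threshold, 18 passed newly, 12 were lost and 65 changed sign, none of these last a member called in the comparison. With the stroma covariate the signs that turned were SNAI1 in HNF4G-KO against control (0.070), GRHL2 (0.23) and ESRP2 (0.016) in FOXA1-OE against control, ESRP2 in the difference of the FOXA1-OE effect (-0.15), and VIM in the metastases, at -0.28 for HNF4G-KO and -0.39 with FOXA1-OE added. With the replicate block they were SNAI2 in HNF4G-KO + FOXA1-OE against control (0.17) and OVOL1 (0.062) and ESRP2 (-0.021) in the difference. With only the metastasis whose FOXA1 exceeded every HNF4G-KO sample, an alternative chosen after seeing the data, they were SNAI2 (0.012), GRHL2 (-0.075) and VIM (-0.32). In KPC they were Snai2 at the same median (-0.019) and in replicates 3 and 4 (-0.43), Vim there (0.13), and Zeb2 (0.61), Twist1 (1.11) and Esrp2 (-1.17) in replicates 1 and 2. Leaving out a sample gave ranges across 0 in FOXA1-OE against control for GRHL2 (-0.26 to 0.25), OVOL1 (-0.45 to 0.13), ESRP1 (-0.029 to 0.18) and VIM (-0.32 to 0.11), in HNF4G-KO + FOXA1-OE against control for SNAI1 (-0.073 to 0.24) and SNAI2 (-0.43 to 0.10), against FOXA1-OE for GRHL2 (-0.10 to 0.41), in the difference for OVOL1 (-0.47 to 0.15) and ESRP2 (-0.091 to 0.28), in HNF4G-KO metastases for ESRP2 (-0.17 to 0.012) and VIM (-0.29 to 2.17), in HNF4G-KO + FOXA1-OE metastases for SNAI1 (-0.048 to 0.28), GRHL2 (-0.086 to 0.16) and OVOL1 (-0.16 to 0.35), and in KPC for Snai2 (-0.15 to 0.30), Zeb1 (-0.10 to 0.055), Zeb2 (-0.30 to 0.10), Twist1 (-0.38 to 0.11), Esrp2 (-0.19 to 0.39) and Vim (-0.17 to 0.024). The cause of these shifts was not tested. Low levels limit what can be said of ZEB1, ZEB2 and TWIST1.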
